A study of Rattus norvegicus with 6 samples.

Results

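Immediate early genes are switched on within minutes of a growth factor, calcium or stress signal, without new protein synthesis. Many of them encode transcription factors, among them the AP-1, EGR and NR4A families. The extracellular signal-regulated kinase (ERK) cascade is a main route to them, and it also induces its own brakes: DUSP phosphatases, which remove phosphate from MAP kinases, and Sprouty and Spred proteins, which act further upstream on Ras and Raf. In arterial walls these genes are known to respond to stretch, injury and vasoactive peptides. A list of 40 such genes was taken, chosen by name with earlier results of these data known. Of them 38 were measured, of 18166 genes in all, each by a probe set annotated to that gene alone. Where a gene had more than 1 such probe set, the one with the highest mean over the 6 arrays was kept. The expression of Fosl2 and Btg2 was not analysed here.

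The arrays held RNA from cerebral arteries of male rats, taken 6 hours after subarachnoid haemorrhage (SAH, bleeding between the membranes that cover the brain) on arrays SAH 1, 4 and 5, or from sham-operated rats on arrays sham 6, 7 and 8. The labels give no strain, age, way of producing the bleed or time after the sham operation, and do not say whether an array held 1 animal or a pool, so the p-values cover only the spread seen between these arrays. Each value is a log2 expression value made by the authors with RMA, in which 1 unit is a 2-fold difference. Array medians lay between 7.31 and 7.37. Between pairs of arrays Pearson's r over all probe sets, whose values are not independent, was 0.970 to 0.991. The smooth muscle genes Myh11, Tagln and Des read between 12.51 and 13.63 on every array. In whole arteries, more cells of a type and more RNA per cell cannot be told apart.

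No member passed the test of SAH against sham arteries, limma with p-values adjusted by Benjamini-Hochberg over the whole set of 36495 probe sets and a threshold of 0.05. The count was 0 of 38, against 1.29% of all genes called, 0.963% higher and 0.33% lower in SAH. At an unadjusted p under 0.05 limma gave 2 of 38 members (5.26%), Spred1 and Spred2, against 18.6% of all genes. Both were higher in SAH, and over all genes 8.16% were higher and 10.5% lower at that level. The median difference over the 38 members, SAH minus sham, was 0.06, against -0.01 over all genes, and 21 members were above 0 (47.3% of all genes were) and 17 below. The groups did not overlap for 3 members, Spred1 and Spred2 with SAH above sham and Ier3 with SAH below sham. That is 7.89% of the members, where 26.8% of all genes did not overlap, 11.4% with SAH above sham. The 95% interval of the difference lay within 1 log2 unit of 0 for 24 of the 38, and reached past it for the other 14, for which a 2-fold difference in at least 1 direction lay within the interval.

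Most members, though not all, varied more between arrays of the same group than the median gene did. Their SD lay above the all-gene median for 30 of the 38 over the SAH arrays and 29 over the sham arrays. The median SD of the members was 0.35 over the SAH arrays and 0.43 over the sham arrays, against 0.15 and 0.11 for all genes. SAH 5 was the highest SAH array for 33 of the 38 members, and sham 8 was the highest sham array for 34. Over all genes these shares were 33.2% and 30.8%. Both held at once for 31 members (81.6%), against 12.8% of all genes. Relative to the mean of the 3 sham arrays, the median of the members stood at -0.03, -0.08 and 0.32 on SAH 1, 4 and 5, and at -0.22, -0.22 and 0.46 on sham 6, 7 and 8. The arrays SAH 5 and sham 8 thus lay above the other 4, across the groups.

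**Figure D1:**
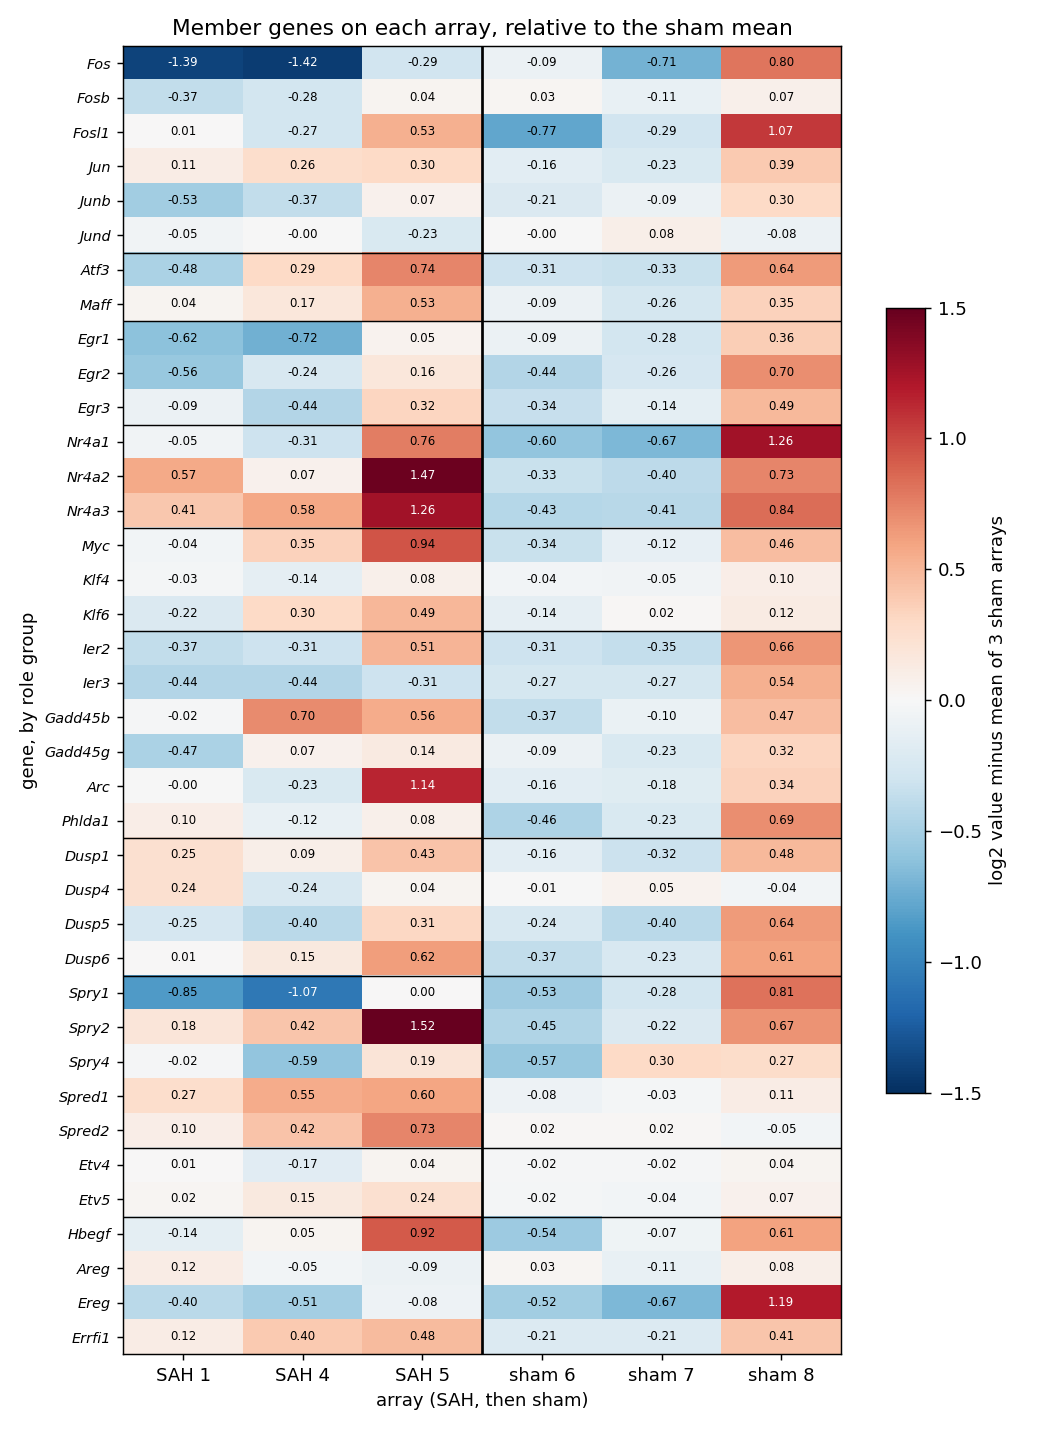
Each cell is the log2 value of a member gene (rows, by role group, separated by lines) on an array (columns, SAH then sham), minus the mean of the 3 sham arrays; red is above and blue below. The columns SAH 5 and sham 8 are red for most genes, and no role group separates the 3 SAH from the 3 sham columns in all its members.

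Fos, the AP-1 subunit most used as a sign of recent cell activation (probe set 17817508), read 9.48, 9.45 and 10.59 on SAH 1, 4 and 5, and 10.78, 10.16 and 11.68 on sham 6, 7 and 8. SAH 1 and SAH 4 lay below all sham arrays, while SAH 5 lay above sham 7. The means were 9.84 ± 0.65 in SAH and 10.88 ± 0.76 in sham arteries (SD, n = 3 each), a difference of -1.04 ± 0.45 (SE; 95% interval -2.09 to 0.02; limma adjusted p = 0.358). This was the lowest difference of any member.

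The remaining AP-1 subunits differed less. Junb, a partner of Fos that often restrains Jun, read 10.78, 10.94 and 11.38 on the SAH arrays, and 11.10, 11.22 and 11.61 on the sham arrays, a difference of -0.28 ± 0.20 (SE). Fosb, a close relative of Fos, differed by -0.20 ± 0.13, and Jund, the subunit present in most resting cells, by -0.10 ± 0.11. Jun, the partner through which Fos binds DNA, stood the other way, with 11.19, 11.33 and 11.37 on the SAH arrays and 10.91, 10.84 and 11.46 on the sham arrays. All 3 SAH values of Jun lay above sham 6 and sham 7 and below sham 8, and the difference was 0.22 ± 0.18. Another Jun probe set (17799870) gave 0.37 ± 0.19. Fosl1, the subunit FRA-1, which ERK stabilises, read 9.82, 9.54 and 10.34 on the SAH arrays, and 9.04, 9.52 and 10.88 on the sham arrays. Its sham arrays spanned more than its SAH arrays, and the difference was 0.09 ± 0.46. Of the 6 measured AP-1 subunits 4 lay below 0 and 2 above, with a median of -0.15, and limma adjusted p ran from 0.358 for Fos to 0.959 for Fosl1.

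Atf3 and Maff encode bZIP factors induced by stress, of which Maff is a small Maf protein without a transactivation domain. Atf3 read 9.90, 10.68 and 11.12 on the SAH arrays and 10.07, 10.05 and 11.02 on the sham arrays, so that SAH 1 was the lowest and SAH 5 the highest of all 6. Its difference was 0.18 ± 0.37 (SE), and that of Maff 0.24 ± 0.20.

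The EGR factors are zinc finger proteins, and Egr1 is a textbook ERK target. Egr1 (probe set 17722348) read 12.27, 12.17 and 12.93 on the SAH arrays and 12.80, 12.61 and 13.25 on the sham arrays. As with Fos, SAH 1 and SAH 4 lay below all sham arrays and SAH 5 among them. The difference was -0.43 ± 0.25 (SE; limma adjusted p = 0.495). Egr2, known for its part in myelination, differed by -0.21 ± 0.32, and Egr3, a target of calcineurin signalling in lymphocytes, by -0.07 ± 0.27. SAH 5 and sham 8 were the highest arrays of their groups for all 3.

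The NR4A genes encode orphan nuclear receptors that act without a known hormone. Nr4a3 read 8.96, 9.13 and 9.81 on the SAH arrays, and 8.12, 8.14 and 9.39 on the sham arrays. Nr4a2 read 10.35, 9.85 and 11.25 on the SAH arrays, and 9.45, 9.39 and 10.51 on the sham arrays. For both genes every SAH array lay above sham 6 and sham 7, and sham 8 lay within the SAH range. Differences were 0.75 ± 0.38 (SE) for Nr4a3 and 0.70 ± 0.42 for Nr4a2, and limma's adjusted p was 0.438 and 0.521. Nr4a1 (Nur77) read 9.80, 9.54 and 10.62 on the SAH arrays, and 9.26, 9.19 and 11.12 on the sham arrays. It had the widest spread of any member in the sham group, and its difference was 0.13 ± 0.55. The 3 NR4A genes had the highest median difference of the role groups, 0.70, and it depended on single arrays. Without SAH 5 Nr4a3 and Nr4a2 differed by 0.49 ± 0.40 and 0.32 ± 0.37 (limma adjusted p = 0.745 and 0.841). Without sham 8 they differed by 1.17 ± 0.26 and 1.07 ± 0.39 (limma adjusted p = 0.175 and 0.336).

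**Figure D2:**
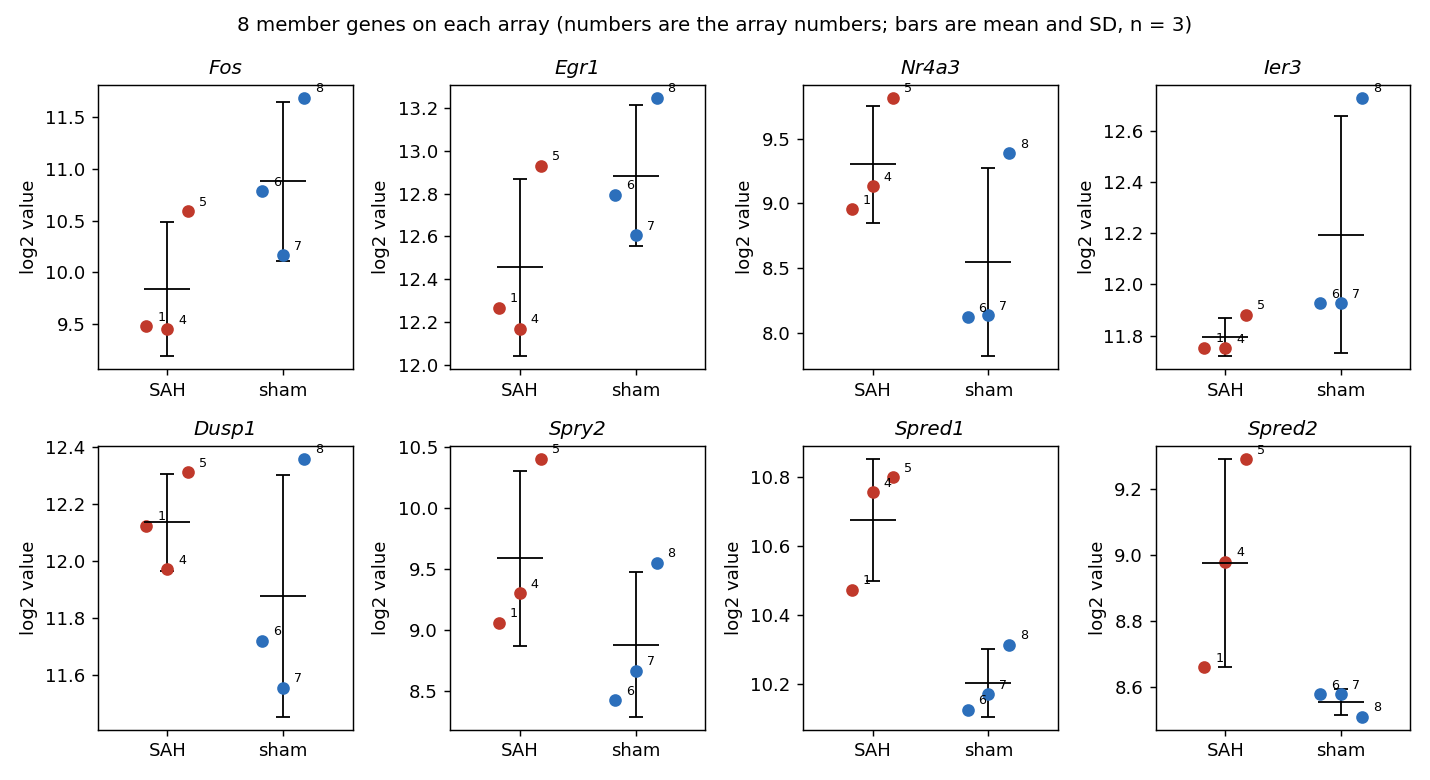
Log2 values of 8 members (panels, chosen after their values were seen) on each array, with SAH in red at the left and sham in blue at the right; numbers are array numbers and bars are mean ± SD (n = 3). Axes span each gene's own range and do not start at 0. SAH 5 and sham 8 top their groups in 7 of the 8 panels, the exception being Spred2, where sham 8 is the lowest array.

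Of the further transcription factors, Myc, a driver of cell growth, read 9.18, 9.57 and 10.16 on the SAH arrays, and 8.88, 9.10 and 9.68 on the sham arrays, a difference of 0.41 ± 0.29 (SE). Klf6, a zinc finger factor induced in injured vessels, differed by 0.19 ± 0.19. Klf4, which takes part in the loss of contractile features by smooth muscle cells, differed by -0.03 ± 0.10, with a 95% interval of -0.28 to 0.22. Klf4 was among the steadiest members, with all 6 values between 10.28 and 10.51.

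Ier3, an immediate early gene that limits the shutting off of ERK by phosphatase, was the only member whose SAH arrays all lay below the sham arrays. It read 11.75, 11.75 and 11.88 on the SAH arrays and 11.93, 11.93 and 12.73 on the sham arrays. The gap between SAH 5 and sham 6 was small beside the height of sham 8, and the difference of -0.40 ± 0.22 (SE) did not pass (limma adjusted p = 0.480). Without sham 8 it was -0.13. Ier2, a small nuclear protein gene, differed by -0.06 ± 0.34, and Phlda1, a gene for a pleckstrin-like protein, by 0.02 ± 0.29.

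Gadd45b and Gadd45g encode small stress proteins that bind MAP kinase kinase kinases. Gadd45b read 10.29, 11.01 and 10.86 on the SAH arrays and 9.93, 10.21 and 10.77 on the sham arrays, a difference of 0.42 ± 0.27 (SE), with sham 8 above SAH 1. Gadd45g differed by -0.09 ± 0.21. Arc, a gene for a synaptic protein induced by nerve cell activity, read 8.11, 7.89 and 9.25 on the SAH arrays and 7.95, 7.93 and 8.46 on the sham arrays. SAH 5 stood apart for Arc, and the difference of 0.30 ± 0.36 was -0.11 without it.

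The DUSP genes encode phosphatases of MAP kinases, the feedback arm that acts on the kinases themselves. Dusp1 (MKP-1), a nuclear phosphatase that acts on p38, JNK and ERK, read 12.12, 11.97 and 12.31 on the SAH arrays, and 11.72, 11.55 and 12.36 on the sham arrays. Dusp6 (MKP-3), a cytoplasmic phosphatase selective for ERK, read 9.33, 9.47 and 9.94 on the SAH arrays, and 8.95, 9.08 and 9.92 on the sham arrays. In both, all SAH arrays lay above sham 6 and sham 7, and sham 8 was level with SAH 5. Dusp1 and Dusp6 each differed by 0.26, with SE of 0.22 and 0.28 (limma adjusted p = 0.661 and 0.742). Dusp5, a nuclear phosphatase of ERK, differed by -0.11 ± 0.31, and Dusp4, another nuclear phosphatase, by 0.02 ± 0.14.

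Sprouty proteins and their Spred relatives hold back growth factor signalling to ERK, and Spred proteins bind neurofibromin, the Ras inhibitor. Spred1 (probe set 17764824) read 10.47, 10.76 and 10.80 on the SAH arrays and 10.13, 10.17 and 10.31 on the sham arrays. All 3 SAH values lay above all sham values. The difference of 0.47 ± 0.12 (SE; 95% interval 0.18 to 0.76), or 1.39-fold, had the smallest p of any member and missed the threshold (limma adjusted p = 0.158). Spred2 (probe set 17691731) read 8.66, 8.98 and 9.29 on the SAH arrays and 8.58, 8.58 and 8.51 on the sham arrays, a difference of 0.42 ± 0.16 (95% interval 0.03 to 0.81; limma adjusted p = 0.306). Its groups were separated by the narrow gap between SAH 1 and sham 7, and its sham arrays were alike, with an SD of 0.04. In Spred1 and Spred2 sham 8 therefore did not reach the SAH arrays, unlike in most members.

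The 3 Sprouty genes did not share a direction. Spry2 read 9.06, 9.30 and 10.40 on the SAH arrays, and 8.43, 8.66 and 9.55 on the sham arrays. Spry1 read 9.53, 9.30 and 10.38 on the SAH arrays, and 9.85, 10.10 and 11.19 on the sham arrays. In each gene SAH 5 and sham 8 topped their groups, but SAH 1 and SAH 4 lay above sham 6 and sham 7 for Spry2 and below them for Spry1. Their differences were 0.71 ± 0.42 (SE) and -0.64 ± 0.41, and limma's adjusted p was 0.504 and 0.544. With each array left out in turn they ran from 0.30 to 1.04 for Spry2 and from -0.96 to -0.24 for Spry1, as against 0.41 to 0.57 for Spred1 and 0.26 to 0.58 for Spred2. Spry4 differed by -0.14 ± 0.29, and sham 7 was its highest array.

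The ETV factors are ETS-family activators whose transcripts follow fibroblast growth factor signalling through ERK in many tissues. Etv5 differed by 0.14 ± 0.10 (SE), with a 95% interval of -0.10 to 0.38. Etv4 differed by -0.04 ± 0.10 and lay between 7.38 and 7.58 on all arrays, little above the array medians. For this pair a difference of 1 log2 unit lay outside the interval.

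Ligands of the EGF receptor are themselves targets of ERK and pass the signal to neighbouring cells, and Errfi1 (MIG-6) is an inhibitor that blocks that receptor. Hbegf, a ligand known in smooth muscle growth, read 9.55, 9.74 and 10.61 on the SAH arrays, and 9.15, 9.62 and 10.30 on the sham arrays, a difference of 0.27 ± 0.36 (SE). Errfi1 read 13.00, 13.28 and 13.36 on the SAH arrays, and 12.68, 12.68 and 13.29 on the sham arrays, a difference of 0.33 ± 0.20, with all SAH arrays above sham 6 and sham 7. Areg lay below the array median on all 6 arrays and Ereg on 5 of them, so these ligands were not used in a fit limited to probe sets above the median on at least 3 arrays, and the other 36 members were. Ereg reached 7.85 on sham 8 and lay between 5.99 and 6.59 on the other 5. Areg differed by -0.01 ± 0.11.

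**Figure D3:**
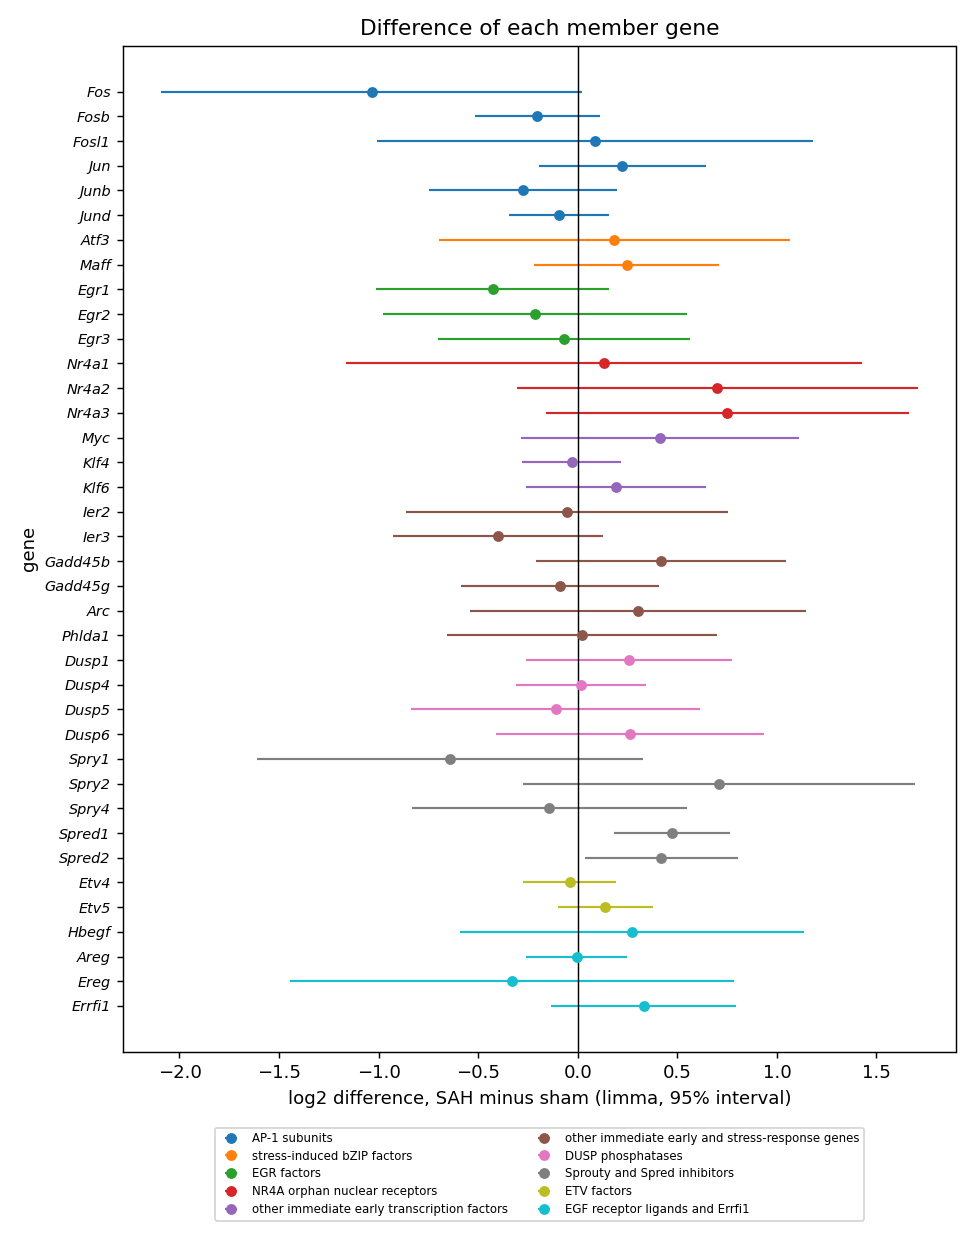
Points are log2 differences, SAH minus sham, for each member (rows), bars are limma's 95% intervals, and colours mark the role groups. Only the intervals of Spred1 (0.18 to 0.76) and Spred2 (0.03 to 0.81) lie off 0, and neither passes after adjustment.

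Member values depended on single arrays, although no fit without an array called any member. Sham 8 and SAH 5 are singled out here because most members read highest there within their groups. By that choice, leaving out sham 8 raises most differences and leaving out SAH 5 lowers them. The counts below describe this shift and are not a test of the members. Without sham 8 the median over the members was 0.27, with 28 above 0, and 10 members had an unadjusted p under 0.05 (26.3%, against 16.6% of all genes). All 10 were higher in SAH, where 7.81% of all genes were higher and 8.75% lower at that level: Jun, Nr4a2, Nr4a3, Gadd45b, Phlda1, Dusp1, Dusp6, Spry2, Spred1 and Errfi1. Without SAH 5 the median was -0.06, with 22 below 0, and 6 members had an unadjusted p under 0.05 (15.8%, against 12.9% of all genes). Of these Fos, Fosb, Junb, Egr1 and Spry1 were lower in SAH and Spred1 was higher, against 7.07% and 5.85% of all genes. Fos then differed by -1.41 ± 0.41 (SE) and Egr1 by -0.67 ± 0.20, and limma's adjusted p was 0.323 and 0.344. Without sham 8 the same genes differed by -0.63 ± 0.39 and -0.25 ± 0.25, with limma's adjusted p at 0.563 and 0.742. The median over the members was also below 0 without sham 6 and without sham 7, at -0.02 in each fit.

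Markers of neutrophils, blood cells that enter injured tissue early, were also mostly highest on SAH 5 and sham 8 within their groups. Unlike the members, they stood higher in SAH as a list, with a median difference of 1.54, against 0.06 for the members. At an unadjusted limma p under 0.05, 5 of 12 (41.7%) were higher and 0 lower in SAH, against 8.16% and 10.5% of all genes. The groups did not overlap for 2 of the 12 (16.7%), against 26.8% of all genes. Over 12 measured markers the median stood 1.07, 0.95 and 2.30 above the sham mean on SAH 1, 4 and 5, and at -0.68, -0.60 and 1.29 on sham 6, 7 and 8. The mean log2 value of the list ran from 9.06 to 9.87 on the SAH arrays and from 7.53 to 9.23 on the sham arrays. SAH 5 and sham 8 were the highest arrays of their groups for 8 of the 12. Fcgr3a, an Fc receptor gene shared with monocytes and natural killer cells, was the only marker called (1.90 ± 0.22 (SE); limma adjusted p = 0.0214), and it was not among those 8. The granule genes Mpo and Ltf lay between 6.36 and 6.93 on every array, under the array medians. Of 9 nerve cell markers 6 were likewise highest on SAH 5 and sham 8 within their groups. Snap25, a synaptic gene among these 6, read 7.62, 7.91 and 8.81 on the SAH arrays and 7.84, 7.91 and 9.23 on the sham arrays. Eno2, the brightest nerve cell marker, read 10.52, 10.27 and 9.86 on the SAH arrays and 10.69, 10.34 and 10.74 on the sham arrays. SAH 5 was thus the lowest array for Eno2. Gad1, Nefl and Tubb3 lay under the array medians on every array. The nerve cell list had mean log2 values of 7.35 to 7.68 on the SAH arrays and 7.36 to 7.84 on the sham arrays. SAH 5 and sham 8 topped their groups for 3 of 12 monocyte and macrophage markers and 1 of 7 endothelial markers. They did so for none of 6 smooth muscle, 8 fibroblast, 5 astrocyte or 5 oligodendrocyte markers. The SAH minus sham differences of vessel wall and macrophage markers were mostly below 0, and none of these genes was called. All 6 smooth muscle markers lay below 0 (median -0.23), and for 4 of them the groups did not overlap, against 26.8% of all genes. Myh11, the smooth muscle myosin heavy chain, had the smallest p among them at -0.40 ± 0.11 (SE; limma adjusted p = 0.174). All 8 fibroblast markers lay below 0 (median -0.17), as did 5 of the 7 endothelial markers (median -0.29). The endothelial marker with the smallest p, Cdh5, stood the other way at 0.61 ± 0.11 (SE; limma adjusted p = 0.0776). Its SAH arrays all lay above its sham arrays. At an unadjusted limma p under 0.05, 1 endothelial marker was higher and 2 were lower in SAH, against 8.16% and 10.5% of all genes. The lower ones were Tek at -0.50 ± 0.15 and Cldn5 at -0.76 ± 0.24 (limma adjusted p = 0.212 and 0.230). Of the 12 monocyte and macrophage markers (median -0.40) 5 were lower and 1 was higher in SAH at an unadjusted p under 0.05, against 10.5% and 8.16% of all genes. Csf1r, the receptor that macrophages need to survive, differed by -0.50 ± 0.11, and Ccr2, a chemokine receptor of blood monocytes, by 1.86 ± 0.59 (limma adjusted p = 0.115 and 0.228). The part of these cells in the levels of the members was not tested.

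**Figure D4:**
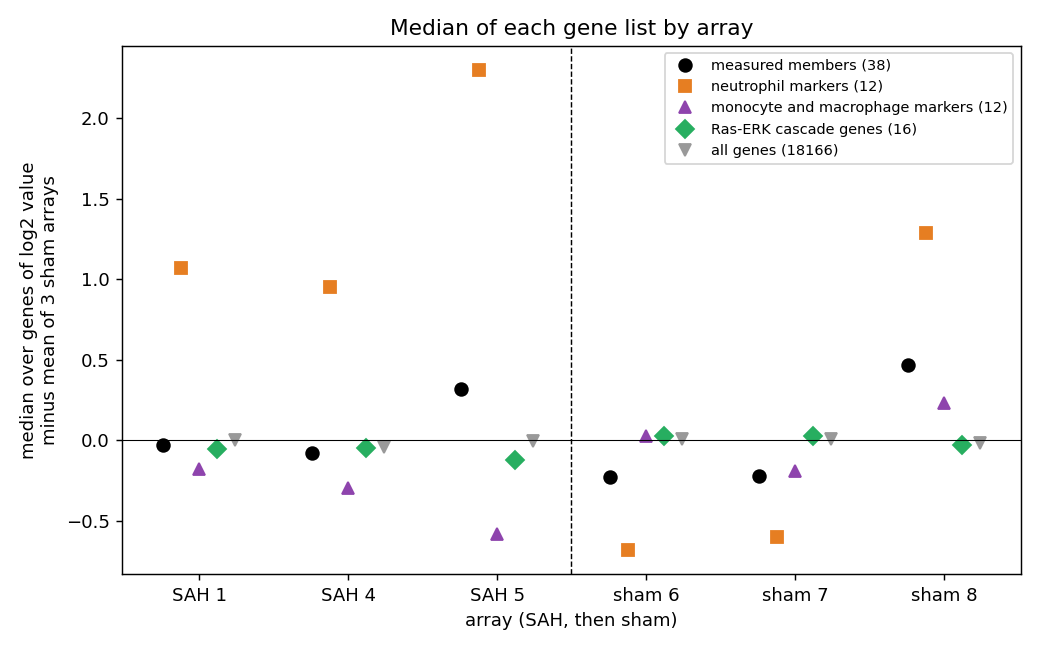
For each array (SAH, then sham) the points give the median over a gene list of the log2 value minus the mean of the 3 sham arrays. The members (black) and the neutrophil markers (orange) are highest within each group on SAH 5 and sham 8, while the Ras-ERK cascade genes (green) and all genes (grey) lie between -0.12 and 0.03.

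Lists of the surrounding pathway also held no called gene. None of 88 measured genes in 7 lists passed with limma, against 1.29% of all genes, and 17 had an unadjusted p under 0.05 (19.3%, against 18.6% of all genes), 11 higher and 6 lower in SAH. The Ras-ERK cascade itself (16 measured) had a median of -0.09. Within it Map2k1, the ERK kinase MEK1, read 10.76, 11.06 and 11.28 on the SAH arrays and 10.22, 10.16 and 10.13 on the sham arrays, a difference of 0.86 ± 0.14 (SE; limma adjusted p = 0.0603). Rps6ka2, a kinase activated by ERK, differed by -0.60 ± 0.11 (limma adjusted p = 0.0714). SAH and sham arrays did not overlap for either gene, and sham 8 did not stand above the other sham arrays.

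Of 10 growth factor receptor genes 7 lay above 0 (70%, against 47.3% of all genes), with a median of 0.12. At an unadjusted limma p under 0.05, 4 were higher and 0 lower in SAH, against 8.16% and 10.5% of all genes. The groups did not overlap for 5 of the 10 (50%), against 26.8% of all genes. Egfr, the receptor for Hbegf, Areg and Ereg, read 10.21, 10.31 and 10.46 on the SAH arrays, and 9.80, 10.01 and 9.94 on the sham arrays, a difference of 0.41 ± 0.11 (SE; limma adjusted p = 0.172). For Fgfr2 the difference was 0.84 ± 0.16 (limma adjusted p = 0.0793). Met differed by 0.61 ± 0.15 and Fgfr1 by 0.27 ± 0.10 (limma adjusted p = 0.145 and 0.267). Among 13 further MAP kinase phosphatases and Ras inhibitors, Dusp10, a phosphatase of p38 and JNK, differed by 0.85 ± 0.19, Dusp2 by 1.03 ± 0.29 and Dusp7 by 0.55 ± 0.16, each with SAH arrays above all sham arrays (limma adjusted p = 0.113, 0.187 and 0.196). Lrig1, an inhibitor of EGF receptors, stood the other way at -0.29 ± 0.11 (limma adjusted p = 0.312), also without overlap. The list had a median of 0.06. The groups did not overlap for 6 of its 13 genes (46.2%, against 26.8% of all genes), 3 higher and 3 lower in SAH. Over all genes 11.4% had SAH above sham without overlap. In the JNK and p38 list (13 measured; median -0.02) Mapk9, the kinase JNK2, differed by 0.94 ± 0.23 and Mapk12, the kinase p38 gamma, by -0.36 ± 0.14, both without overlap (limma adjusted p = 0.139 and 0.307). The list of factors that act on immediate early promoters (12 measured) had a median of -0.05. There Etv1, a relative of Etv4 and Etv5, had the smallest p, with 8.03, 7.69 and 7.57 on the SAH arrays and 8.31, 8.09 and 8.33 on the sham arrays, a difference of -0.48 ± 0.15 (limma adjusted p = 0.212). Srf, the serum response factor, differed by -0.20 ± 0.13. Other EGF receptor ligands (5 measured) had a median of 0.13.

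A list of 19 other measured immediate early genes had a median of 0.19, and 14 lay above 0 (73.7%, against 47.3% of all genes). Klf10, a factor induced by TGF-beta, differed by 0.58 ± 0.10 (SE; limma adjusted p = 0.0732), with 9.86, 9.74 and 9.97 on the SAH arrays and 9.26, 9.36 and 9.22 on the sham arrays. Zfp36l1, an RNA-binding protein gene, and Npas4, a factor induced by nerve cell activity, both stood at -0.50 (limma adjusted p = 0.204 and 0.234). SAH 5 and sham 8 were the highest arrays of their groups for 11 of these 19 genes (57.9%), as against 1 of the 16 Ras-ERK cascade genes.

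Promoters of the members were also searched for short sequence motifs. Whether these motifs go with the array pattern of the members was not tested. RefSeq windows of the GRCr8 assembly, from 250 bases before to 50 after each gene's start, were matched by symbol for 29 of the 40 genes. Fos, Jun, Atf3, Egr3, Nr4a3, Myc, Ier3, Arc, Dusp4, Etv4 and Ereg had no entry. The windows of the 3 members with the smallest p among the 29 are printed, for Spred1 at chr3:124436980-124437279 (plus strand), Spred2 at chr14:98350327-98350626 (plus strand) and Egr1 at chr18:26736828-26737127 (plus strand). Capitals mark matches to the motifs searched, the cAMP response element TGACGTCA, the AP-1 site TGANTCA and the CArG box to which serum response factor binds. Each motif reads alike on both strands, and none can lie within another.
Egr1: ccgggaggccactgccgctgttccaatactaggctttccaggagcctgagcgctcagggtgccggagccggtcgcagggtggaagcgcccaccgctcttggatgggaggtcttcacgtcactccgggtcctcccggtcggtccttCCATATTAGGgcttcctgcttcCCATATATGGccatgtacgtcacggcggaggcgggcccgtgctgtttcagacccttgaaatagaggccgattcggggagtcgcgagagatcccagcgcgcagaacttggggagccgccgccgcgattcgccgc
Spred1: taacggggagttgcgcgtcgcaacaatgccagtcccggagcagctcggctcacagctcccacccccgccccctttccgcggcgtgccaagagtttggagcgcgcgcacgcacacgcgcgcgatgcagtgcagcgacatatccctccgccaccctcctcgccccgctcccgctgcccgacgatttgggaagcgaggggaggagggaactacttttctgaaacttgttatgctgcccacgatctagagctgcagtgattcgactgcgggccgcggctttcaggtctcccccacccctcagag
Spred2: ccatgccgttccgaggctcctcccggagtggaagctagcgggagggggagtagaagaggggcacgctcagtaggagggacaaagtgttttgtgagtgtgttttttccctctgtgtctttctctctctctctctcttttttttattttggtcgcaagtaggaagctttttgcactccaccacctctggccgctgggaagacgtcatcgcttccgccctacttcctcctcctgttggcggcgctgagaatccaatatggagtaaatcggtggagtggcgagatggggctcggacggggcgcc
The Egr1 window held 2 CArG boxes, which begin 105 and 83 bases before the start, and those of Spred1 and Spred2 held no match. CArG boxes were found in 4 of the 29 windows (Dusp5, Egr1, Egr2 and Klf6), or 13.8%, against 1.64% of 27457 windows. The cAMP response element was in 6 (Areg, Btg2, Dusp1, Ier2, Jund and Maff), or 20.7%, against 1.91%, and the AP-1 site was in none of the 29, against 7.33%. A match is a run of letters and not a measured binding site. Among the 9 measured members with a cAMP response element or a CArG box, SAH minus sham differences ran from -0.43 for Egr1 to 0.26 for Dusp1.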

How the data were processed

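Per the submitters' processing notes, the authors made the deposited log2 values with Affymetrix Expression Console 1.1.2 and RMA, which corrects background, normalises between arrays and summarises probes. No genome build or setting is named there. RMA makes arrays share nearly 1 distribution, so a general change in RNA cannot be seen, and it understates differences of dim and very bright genes. The values were used as deposited. Of 36685 probe sets, 190 controls were set aside. GEO's platform annotation, with symbols updated through RefSeq (GRCr8), gave 1 gene for 18511 probe sets, several for 575 and none here for 17409.

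The comparison of SAH with sham used limma 3.58.1 under R 4.3.3, fitted by lmFit and eBayes without covariates, two-sided, and p-values were adjusted by Benjamini-Hochberg over 36495 probe sets. The test was checked on simulated data with independent noise for each probe set. Those data do not hold the shared array pattern of the members. The members, role groups and other lists were chosen with earlier results of these data known. All measured members are described. From other lists, called genes and up to 4 with the smallest p could be named. Tagln, Snap25, Gad1, Nefl, Ltf and Mpo fall outside this rule and were named after their values were seen. Alternatives were a filter on dim probe sets, repeated quantile normalization, array medians subtracted, trend and robust eBayes, array weights, an adjusted p under 0.10, each array left out, and other probe set choices. The number of arrays limits the precision.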

Additional observations from a re-analysis of the deposited data

How the results depend on the processing

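No member was called higher or lower in any of the 14 alternatives, in which the smallest limma adjusted p of a member ran from 0.0642 (Spred1 without SAH 1) to 0.448. The median difference of the members ran from -0.06 to 0.27 and moved by less than its spread between arrays. The count of genes called, 235 in the main comparison, was 672 with the filter on dim probe sets (11323 genes tested), 363 with trend and robust options, 373 with array weights and 530 at an adjusted p under 0.10, and ran from 29 to 670 with an array left out; the cause was not tested. In the fits with an array left out, 21 of 38 members kept their direction and 17 did not. Their differences ran from -0.30 to 0.62 for Fosl1, -0.092 to 0.52 for Atf3, -0.43 to 0.13 for Egr2, -0.26 to 0.17 for Egr3, -0.20 to 0.76 for Nr4a1, -0.086 to 0.023 for Klf4, -0.34 to 0.27 for Ier2, -0.20 to 0.10 for Gadd45g, -0.11 to 0.57 for Arc, -0.21 to 0.37 for Phlda1, -0.10 to 0.14 for Dusp4, -0.32 to 0.21 for Dusp5, -0.43 to 0.084 for Spry4, -0.079 to 0.022 for Etv4, -0.049 to 0.58 for Hbegf, -0.067 to 0.035 for Areg and -0.67 to 0.26 for Ereg. With array weights, 6 members near 0 changed sign, to 0.0070 for Egr3, 0.084 for Ier2, 0.0040 for Gadd45g, -0.016 for Dusp4, 0.012 for Dusp5 and 0.0004 for Areg. No paired analysis was made because the labels name no pairing.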
